A study of Homo sapiens with 12 samples.

Results

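The genes described here are 41 genes of the extracellular matrix and its remodelling, taken by name and followed in HK-2 cells with and without the treatment that the labels call Fk. They were read in 4 classes: 13 basement membrane genes, 13 genes of fibrillar and other collagens, 8 genes of matrix glycoproteins and lysyl oxidases, and 7 genes of matrix proteases and their inhibitors. Each gene was read from its probe set with the highest mean among those that name it alone. Such a probe set was found for 40 of the 41, all but LAMA3, and 31 of the 40 were bright enough to be tested (log2 4 or more, 3 or more arrays), among 10784 tested genes of 19775 genes in all.

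HK-2 cells are epithelial cells of the human proximal tubule that were immortalized. The 12 Affymetrix arrays fell into 4 groups of 3: Fk for 48 h, its control vehicle for 48 h, Fk for 12 h and its control vehicle for 12 h. All cells, controls included, had been seeded 24 h earlier and grown to about 90% confluence in medium with 5 mM glucose, 10 ng/ml EGF, 36 ng/ml hydrocortisone and 5 µg/ml insulin. The comparisons asked what Fk did to gene expression at each time. The arrays of a group are labelled biological replicates of this 1 line, and the labels give no dose of Fk.

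A basement membrane is a thin sheet on which epithelial cells rest. Laminins, trimers of an alpha, a beta and a gamma chain, and type IV collagen form its networks, and nidogen, perlecan and agrin link or bind them. Fibrillar collagens and fibronectin build the interstitial matrix, lysyl oxidases cross-link collagen and elastin, and matrix metalloproteinases cut matrix proteins and are held in check by the TIMP inhibitors. In the kidney, tubular cells contribute to their own basement membrane, and matrix accumulation is the mark of renal fibrosis.

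The 9 genes with a probe set that were not tested read between 2.15 and 3.61 on all arrays, so no level above background was shown for them. They were the laminin alpha chain gene LAMA4, the fibrillar collagen genes COL1A2, COL3A1, COL5A1 and COL5A2, the type VI chain gene COL6A3, the transmembrane collagen gene COL13A1, the inhibitor gene TIMP3 and the gelatinase gene MMP2. COL5A1, at 3.18 to 3.61, lay nearest to the level set for testing, and LAMB2, at 6.08 to 7.86, had the lowest mean of the tested genes at 6.68. Type I collagen is a trimer of COL1A1 and COL1A2 chains, and of these COL1A1 was tested and COL1A2 was not. The epithelial markers reached a log2 value of 4 in 10 of 10 cases, the proximal tubule markers in 2 of 13 (SLC3A1 and PDZK1, but not LRP2, CUBN or AQP1), those of fibroblasts and pericytes in 6 of 10 (DCN, LUM, ACTA2, VIM, S100A4 and RGS5, but not PDGFRA, PDGFRB, THY1 or PDPN), those of endothelium in 1 of 7 (PECAM1) and those of leukocytes in 0 of 5.

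The first principal component, with 55.4% of the variance, separated the times, and the second, with 19.4%, set replicate 3 of Fk at 12 h apart (score 66.4, against -14.7 to 7.27 for the other arrays). This array mattered for the matrix genes. On it, 23 of 31 members lay below the mean of the other Fk arrays of 12 h, with a median deviation of -0.27, against 48.9% of all genes and a median of 0.01. Among the basement membrane genes 10 of 11 lay below, with a median of -0.54. Many differences and counts of members that this array moved by over 1.5 times, or whose sign or call it changed, are therefore given without it as well. It also enters the spread that all groups share in the fit, so standard errors, intervals and p-values at 48 h depend on it too. Without it, the adjusted p of NID1 at 48 h by limma was 0.264 in place of 0.568, and that of COL7A1 was 0.156 in place of 0.193.

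No matrix gene passed the test between Fk and control at 48 h, although most lay on the high side. By limma, 0 of 31 members had an adjusted p under 0.05, as did 0% of all genes tested, and 7 members had an unadjusted p under 0.05, against 5.18% of all genes. Without the outlying array of 12 h, 9 members had an unadjusted p under 0.05, against 8.39% of all genes, still with 0 members called. The log2 difference, Fk minus control, was positive for 27 of 31 members, against 53.8% of all genes, with a median of +0.26 against +0.02. The 3 Fk arrays lay above all 3 control arrays for 9 members (29.0%), against 6.14% of all genes, and below them for 0 members, against 4.02% (10.2% either way). In whole cultures, fewer cells of a kind and less RNA per cell cannot be told apart. The shares describe the list, since the members were chosen with earlier results known and share the same 6 arrays. Leaving out any single array of 48 h left 9 to 15 members above without overlap, against 8.65% to 13.9% of all genes.

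**Figure D1:**
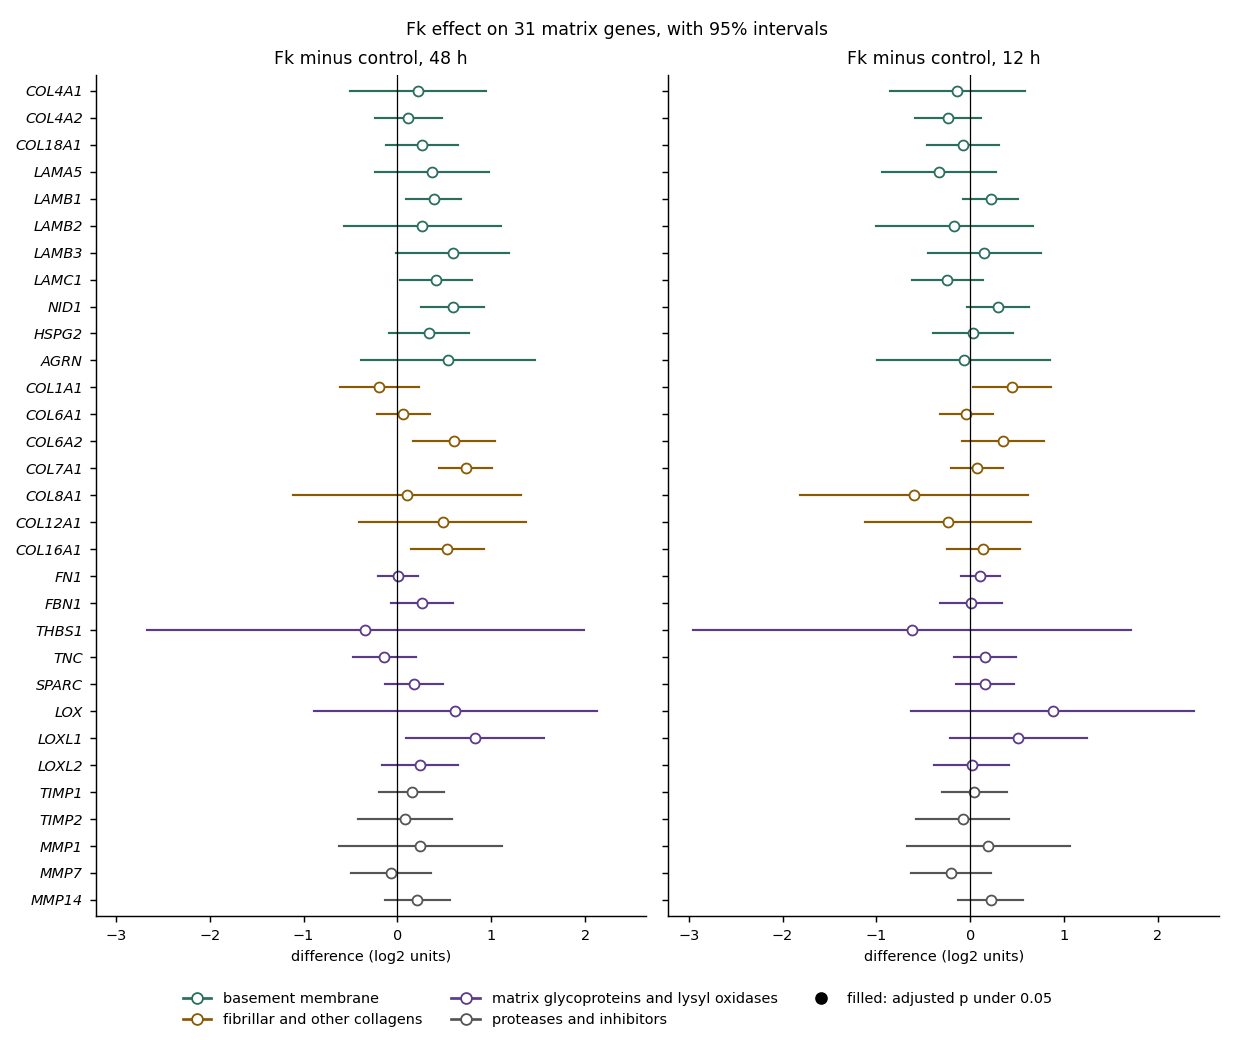
Log2 difference, Fk minus control, of the 31 tested matrix genes at 48 h (left) and at 12 h (right), with 95% intervals of limma on the horizontal axis and genes down the vertical axis, coloured by class. No marker is filled, since no gene passed the adjusted test; at 48 h all 11 basement membrane genes lie right of 0, against 4 of 11 at 12 h.

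All 11 tested basement membrane genes were positive at 48 h, with a median of +0.36. NID1, which encodes the linker protein nidogen, read 9.74, 9.85 and 10.05 on the Fk arrays of 48 h, against 9.08, 9.25 and 9.54 on the control arrays of 48 h. The groups did not overlap, and the difference was +0.59 ± 0.15 (SE, adjusted p = 0.568, 95% interval 0.25 to 0.92). LAMB1, a laminin beta chain gene, read 13.41, 13.27 and 13.54 with Fk, against 13.11, 13.07 and 12.88 in controls. Its groups did not overlap either, at +0.39 ± 0.13 (adjusted p = 0.775).

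LAMC1, the gamma chain gene that most laminins share, read 11.00, 11.20 and 11.44 with Fk at 48 h, against 10.69, 10.60 and 11.12 in controls. Here the highest control array lay within the Fk range, and the difference was +0.41 ± 0.17 (adjusted p = 0.919). AGRN, the gene of the proteoglycan agrin, read 10.95, 10.58 and 10.49 with Fk, against 10.29, 9.85 and 10.28 in controls (+0.54, 95% interval -0.38 to 1.46). Its groups did not overlap. The interval rests on the spread of all 4 groups, and the SD was 1.07 with Fk at 12 h. At 48 h the SD was 0.24 with Fk and 0.25 in controls. Without the outlying array of 12 h, its adjusted p at 48 h by limma was 0.414. LAMB3, a beta chain gene of epithelial laminin, and LAMA5, an alpha chain gene of many epithelial basement membranes, also had groups that did not overlap, at +0.59 and +0.36. The remaining 5 genes, which encode the type IV chains COL4A1 and COL4A2, COL18A1 (the endostatin precursor), LAMB2 and HSPG2 (perlecan), lay between +0.12 and +0.33 with overlapping groups.

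COL4A1 and COL4A2 lie head to head on chromosome 13, and their promoter windows from RefSeq (GRCh38.p14, 250 bases before to 50 after the annotated start) are shown because they are largely the same DNA. The windows are chr13:110307108-110307407 for COL4A1, on the minus strand, and chr13:110307034-110307333 for COL4A2, on the plus strand. Capitals mark the 226 bases that they share, read on opposite strands with 0 mismatches, and the annotated starts are 127 bases apart.
COL4A1: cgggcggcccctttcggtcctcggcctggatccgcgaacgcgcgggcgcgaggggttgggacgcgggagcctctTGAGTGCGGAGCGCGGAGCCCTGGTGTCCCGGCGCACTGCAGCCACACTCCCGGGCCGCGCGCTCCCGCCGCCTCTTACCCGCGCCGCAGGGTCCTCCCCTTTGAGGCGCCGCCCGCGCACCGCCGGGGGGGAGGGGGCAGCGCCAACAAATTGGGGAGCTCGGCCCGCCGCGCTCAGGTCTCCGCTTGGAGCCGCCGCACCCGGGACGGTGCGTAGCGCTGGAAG
COL4A2: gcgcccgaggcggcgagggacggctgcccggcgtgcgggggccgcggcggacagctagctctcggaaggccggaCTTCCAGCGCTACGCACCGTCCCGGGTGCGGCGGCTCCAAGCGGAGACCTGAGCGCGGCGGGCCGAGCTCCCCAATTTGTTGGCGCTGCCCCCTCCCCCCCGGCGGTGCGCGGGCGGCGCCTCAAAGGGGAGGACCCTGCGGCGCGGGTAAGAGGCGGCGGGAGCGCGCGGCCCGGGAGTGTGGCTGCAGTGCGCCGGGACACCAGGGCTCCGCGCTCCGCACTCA
On the arrays both genes read low on replicate 3 of Fk at 12 h. There COL4A1 was at 11.60, against 12.74 and 12.73 on the other Fk arrays of 12 h, and COL4A2 was at 12.30, against 12.91 and 12.75. Fk minus control was +0.22 for COL4A1 and +0.12 for COL4A2 at 48 h, and -0.14 and -0.24 at 12 h, with overlapping groups in each case. Without that array the 12 h differences were +0.24 for COL4A1 and -0.06 for COL4A2.

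Among the collagens outside the basement membrane, 6 of 7 were positive at 48 h, with a median of +0.48. COL7A1, which encodes the chain of the anchoring fibrils that fasten epithelial basement membranes to the tissue beneath, had the smallest p of all members. It read 9.57, 9.82 and 9.53 with Fk at 48 h, against 8.84, 8.90 and 9.00 in controls. Every Fk array lay above every control array, and the difference was +0.73 ± 0.13 (unadjusted p = 1.58e-04, adjusted p = 0.193, 95% interval 0.45 to 1.01). Its other probe set gave +0.94.

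The promoter window of COL7A1 (chr3:48595280-48595579, minus strand) is shown because this gene had the smallest p. Capitals mark the letters GGGCGG and TATAAA on either strand, where the reverse strand reads CCGCCC and TTTATA.
COL7A1: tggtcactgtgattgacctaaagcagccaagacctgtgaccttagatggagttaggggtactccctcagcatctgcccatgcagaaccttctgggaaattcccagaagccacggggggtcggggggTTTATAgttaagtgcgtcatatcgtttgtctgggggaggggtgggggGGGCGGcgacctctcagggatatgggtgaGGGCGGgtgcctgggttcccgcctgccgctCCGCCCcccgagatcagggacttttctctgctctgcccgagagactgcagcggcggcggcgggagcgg
GGGCGG, the GC box, stands in 45.0% of 35116 RefSeq windows of this length and in 27 of the 36 windows of the 30 matrix genes that have one. TATAAA, the TATA box, stands in 11.5% of all windows and in those of 5 of the 30.

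COL6A2, a type VI collagen chain gene, read 8.81, 8.44 and 8.83 with Fk at 48 h, against 8.03, 7.89 and 8.35 in controls. The groups did not overlap, at +0.60 ± 0.20 (adjusted p = 0.737), but the gene's other probe set gave -0.13. COL16A1, of a collagen associated with fibrils, read 8.61, 8.41 and 7.92 against 7.95, 7.72 and 7.68 in controls, with 1 control array above the lowest Fk array, at +0.53 ± 0.18 (adjusted p = 0.737). COL1A1, the fibrillar type I chain gene, was the negative one of the 7, at -0.19 with overlapping groups. COL6A1, COL8A1 (a network-forming collagen) and COL12A1 (a collagen associated with fibrils) gave +0.06, +0.10 and +0.48 with overlap, and COL8A1 and COL12A1 had wide intervals that reached -1.11 to 1.32 and -0.41 to 1.37.

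Of the matrix glycoproteins and lysyl oxidases 6 of 8 were positive at 48 h, with a median of +0.21. LOXL1, a lysyl oxidase gene tied to elastic fibres, read 6.32, 7.21 and 7.60 with Fk, against 5.93, 5.94 and 6.77 in controls, so the lowest Fk array lay under the highest control array. Its difference was +0.83 ± 0.33 (adjusted p = 0.904). FBN1, the gene of the microfibril protein fibrillin, read 8.75, 8.75 and 8.93 with Fk, against 8.37, 8.58 and 8.68 in controls, without overlap (+0.26 ± 0.15, adjusted p = 1). LOXL2, which encodes another lysyl oxidase, gave +0.24 ± 0.18 (adjusted p = 1).

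FN1, the fibronectin gene, differed by 0.00 at 48 h, with a 95% interval of -0.21 to 0.21. SPARC, of a collagen-binding glycoprotein, gave +0.18, and TNC, the tenascin gene, gave -0.14. The widest intervals of the class belonged to THBS1 (thrombospondin), at -0.34 with an interval of -2.67 to 1.99, and LOX, at +0.62 with an interval of -0.89 to 2.12. At this spread a difference of the size seen for LOXL1 could not have been told from 0 in either gene. The sign for THBS1 also depended on the probe set, since its other bright probe sets gave +0.16 and +0.45 at 48 h.

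The proteases and inhibitors had the smallest median of the 4 classes at 48 h, +0.15, with 4 of 5 positive. MMP14, which encodes a membrane-bound collagenase, read 7.29, 7.32 and 7.51 with Fk, against 7.01, 7.19 and 7.27 in controls, without overlap, at +0.21 ± 0.16 (adjusted p = 1). TIMP1 gave +0.15 ± 0.16 and the collagenase gene MMP1 gave +0.24 ± 0.39 (adjusted p = 1 for both), and MMP1 stood at -0.01 without replicate 2 of Fk at 48 h. TIMP2 and MMP7 (matrilysin) gave +0.08 and -0.06, with overlapping groups.

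At 12 h no matrix gene passed the test either, and the class of basement membrane genes did not lie on the high side. By limma, 0 of 31 members had an adjusted p under 0.05, as did 0% of all genes tested, and 1 member, COL1A1, had an unadjusted p under 0.05, against 6.71% of all genes. The difference was positive for 18 of 31 members, against 53.2% of all genes, with medians of +0.03 and +0.01. Without the outlying array 5 members were under an unadjusted p of 0.05, against 7.87% of all genes, and 20 of 31 were positive, against 55.9%, with medians of +0.16 and +0.03. The groups did not overlap for 3 members, COL1A1, FN1 and NID1, which were higher with Fk (9.68%, against 9.91% of all genes), and 0 were lower, against 6.49% (16.4% either way).

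The values of the basement membrane class at 12 h rested on the outlying array. With it, 4 of 11 genes were positive and the median was -0.07, and without replicate 1 of Fk at 12 h instead 2 of 11 were positive. Without it, 8 of 11 were positive and the median was +0.20, still with 0 members called, and 10 members lay above control without overlap (32.3%, against 21.7% of all genes): AGRN, COL1A1, COL4A1, FBN1, FN1, HSPG2, LAMB1, MMP14, NID1 and SPARC. AGRN shows the swing. It read 10.74, 10.67 and 8.86 with Fk at 12 h, against 9.99, 10.41 and 10.09 in controls, which gave -0.07 over all arrays and +0.54 without the low one. At 12 h the summed log2 value of the 10 fibroblast and pericyte markers ran from 69.3 to 70.5 with Fk. On the control arrays of 12 h it ran from 67.9 to 69.0. The part of this sum in the values above was not tested. None of these markers that was tested had an unadjusted p under 0.05 by limma at 12 h. The epithelial sum at 12 h ran from 97.4 to 102.1 with Fk and from 100.5 to 100.9 in controls. The sums of the tubule, endothelial and leukocyte markers overlapped at 12 h as well. At 48 h the fibroblast and pericyte sum ran from 66.2 to 69.9 with Fk and from 66.3 to 71.4 in controls. The tested markers in it moved both ways at 48 h. By limma VIM gave +0.27 (unadjusted p = 0.0319, adjusted p = 0.904), ACTA2 +0.27 and DCN +0.65. RGS5 gave -0.67, S100A4 -0.23 and LUM -0.20. The part of these markers in the values of 48 h was not tested.

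NID1 read 9.65, 9.88 and 9.49 with Fk at 12 h, against 9.29, 9.37 and 9.48 in controls. The lowest Fk array and the highest control array nearly met, and the difference was +0.29 ± 0.15 (adjusted p = 0.759). LAMB1 gave +0.22 ± 0.13 (adjusted p = 0.789) and COL4A2 gave -0.24 ± 0.16 (adjusted p = 0.792), which stood at -0.06 without the outlying array. LAMC1 read 10.79, 10.93 and 10.54 with Fk, against 10.89, 11.01 and 11.10 in controls, a difference of -0.25 with overlap, or -0.14 without the outlying array.

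COL1A1 read 8.64, 8.88 and 8.21 with Fk at 12 h, against 8.18, 8.12 and 8.09 in controls. All Fk arrays lay above the controls, at +0.45 ± 0.19 (adjusted p = 0.737), and +0.63 without the outlying array. COL6A2 gave +0.35 ± 0.20 (adjusted p = 0.778) with overlap, and COL8A1 gave -0.60 ± 0.55 (adjusted p = 0.834), or -0.33 without that array. COL7A1, the gene with the smallest p at 48 h, read 9.29, 9.00 and 8.94 with Fk at 12 h, against 8.95, 9.00 and 9.06 in controls, and the groups overlapped at +0.07 (+0.14 without the outlying array).

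Among the matrix glycoproteins and lysyl oxidases 7 of 8 were positive at 12 h, with a median of +0.13 (6 of 8 and +0.19 without the outlying array). LOXL1 read 8.16, 7.69 and 8.07 with Fk, against 7.37, 7.24 and 7.78 in controls, at +0.51 ± 0.33 (adjusted p = 0.791). LOX gave +0.88 ± 0.68 (adjusted p = 0.811), or +0.37 without the outlying array, and FN1 gave +0.11 ± 0.09 (adjusted p = 0.828). Of the proteases and inhibitors 3 of 5 were positive, with a median of +0.04, and 2 of 5, with a median of -0.03, without that array. MMP14 gave +0.21 ± 0.16 (adjusted p = 0.806), or +0.34 without it, MMP7 gave -0.21 ± 0.19 (adjusted p = 0.833), and MMP1 gave +0.19 ± 0.39 (adjusted p = 0.941), which turned to -0.11 without that array.

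**Figure D2:**
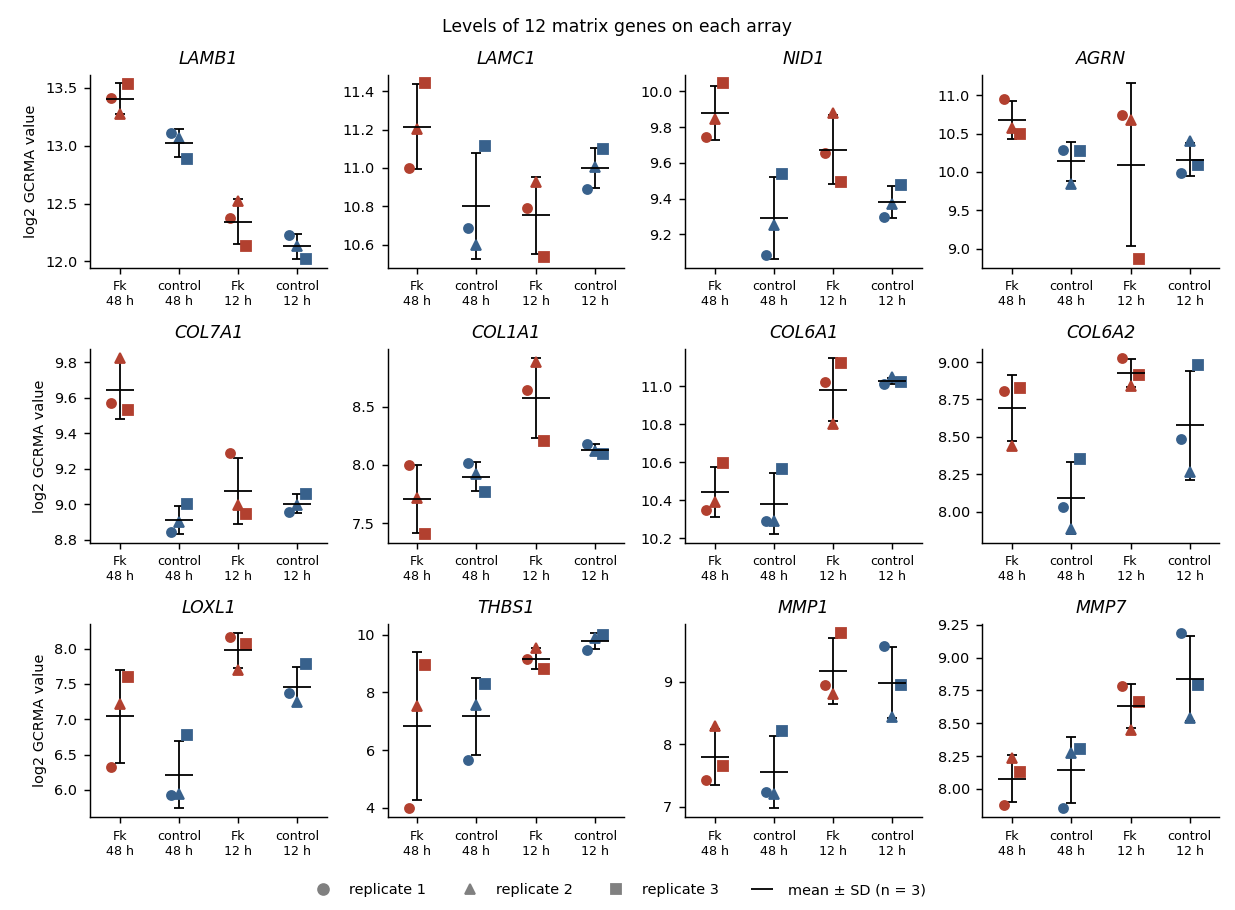
Log2 GCRMA value of 12 matrix genes on each of the 12 arrays, by group (Fk and control at 48 h, then Fk and control at 12 h), with replicates as circles, triangles and squares and bars at the mean ± SD (n = 3). COL7A1 and NID1 lie higher with Fk than in controls on all arrays of 48 h, and AGRN is low on 1 Fk array of 12 h.

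The Fk effect was not shown to differ between the times for any member. By limma, the effect at 48 h minus the effect at 12 h gave 0 of 31 calls, as for 0% of all genes tested, with 3 members at an unadjusted p under 0.05, against 3.31% of all genes. It was positive for 26 of 31 members, against 51.6% of all genes (23 of 31 without the outlying array), and for 11 of 11 basement membrane genes, which became 9 of 11 without the outlying array of 12 h. COL7A1 stood at +0.65 ± 0.18, LAMC1 at +0.66 ± 0.24 and COL1A1 at -0.64 ± 0.27, each with an adjusted p of 0.996. LAMA5 (+0.69 ± 0.39), TNC (-0.29 ± 0.21), FBN1 (+0.26 ± 0.21), TIMP2 (+0.16 ± 0.32) and MMP7 (+0.15 ± 0.27) had the same adjusted p, but without the outlying array LAMA5 stood at +0.34, FBN1 at +0.11 and TIMP2 at -0.13.

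Averaged over both times, Fk minus control passed for 0 of 31 members, and for 0.00927% of all genes tested, 1 gene. In this mean 6 members had an unadjusted p under 0.05, against 7.94% of all genes, and 26 of 31 were positive, against 54.1%. Without the outlying array of 12 h these were 11 members, against 11.5% of all genes, and 27 of 31, against 55.3%, with 0 members called. The genes with the smallest p were COL7A1 (+0.40 ± 0.09, adjusted p = 0.277), NID1 (+0.44 ± 0.11, adjusted p = 0.296), COL6A2 (+0.48 ± 0.14, adjusted p = 0.402), LAMB1 (+0.30 ± 0.09, adjusted p = 0.422) and LOXL1 (+0.67 ± 0.23, adjusted p = 0.483). SPARC (+0.17 ± 0.10, adjusted p = 0.732), MMP14 (+0.21 ± 0.11, adjusted p = 0.685) and MMP7 (-0.14 ± 0.14, adjusted p = 0.849) followed in their classes.

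Between the times, single matrix genes passed the test. In Fk cultures 9 of 31 members differed between 48 h and 12 h (29.0%, against 23.2% of all genes): 6 rose, against 11.5% of all genes, and 3 fell, against 11.7%. In control cultures 7 of 31 differed (22.6%, against 21.5% of all genes): 3 rose, against 10.6% of all genes, and 4 fell, against 10.9%. The share of calls in controls is thus near that of all genes. The difference was positive for 19 of 31 members in Fk cultures and for 14 of 31 in controls, against 51.5% of all genes in each. Without the outlying array it was positive for 14 of 31 in Fk cultures too, with a median of -0.03 in place of +0.20, so the counts in Fk and control cultures were then equal. By unadjusted p, 16 and 13 members were under 0.05 in Fk and control cultures, against 37.7% and 36.4% of all genes. Without overlap, 12 members lay higher at 48 h in Fk cultures and 6 lower, against 19% and 19.7% of all genes (38.7% either way). In controls 6 lay higher and 9 lower, against 25.1% and 24.9% of all genes (50% either way). Leaving out 1 array at a time gave 5 to 11 calls in Fk cultures. There were 7 without the outlying array (22.6%, against 25.8% of all genes, so no longer above that share). Without replicate 1 of Fk at 48 h there were 5. In controls it gave 2 to 9 calls, with 2 without control replicate 1 of 12 h and 3 without control replicate 3 of 12 h or control replicate 1 or 2 of 48 h. There were 9 in controls without the outlying array (29.0%, against 31.9% of all genes). For the other fits that left out 1 array, the shares of all genes called are not given here. The counts of those fits therefore cannot be set against all genes. In the 12 fits that each left out 1 array, LAMB1, COL7A1, COL16A1 and COL1A1 passed throughout in Fk cultures, as did LAMB1 and COL6A1 in controls. COL18A1, COL4A2, COL6A1, LOXL2 and MMP1 in Fk cultures, and TNC, FN1, LOXL1, MMP1 and MMP7 in controls, lost the call in 1 or more of these fits. Time here includes all that changes as the cultures age, and this cannot be told apart from the hours of exposure to the vehicle.

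LAMB1 rose in both. It read 13.41, 13.27 and 13.54 in Fk cultures of 48 h, against 12.38, 12.52 and 12.13 in Fk cultures of 12 h, and 13.11, 13.07 and 12.88 in control cultures of 48 h, against 12.23, 12.14 and 12.02 in control cultures of 12 h. The groups did not overlap in either case, and the rise was +1.06 ± 0.13 in Fk cultures (2.09-fold, adjusted p = 9.19e-04) and +0.89 ± 0.13 in controls (1.85-fold, adjusted p = 0.00234). The 2 probe sets of LAMB1 gave rises between 1.06 and 1.16 in Fk cultures and between 0.82 and 0.89 in controls.

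COL18A1 and COL4A2, of the basement membrane collagens, also rose in Fk cultures. COL18A1 read 10.29, 10.09 and 10.22 at 48 h, against 9.65, 9.73 and 9.11 at 12 h, a rise of +0.71 ± 0.17 (adjusted p = 0.0169). COL4A2 read 13.12, 13.04 and 13.34 at 48 h, against 12.91, 12.75 and 12.30 at 12 h, a rise of +0.52 ± 0.16 (adjusted p = 0.0406) that became +0.34 and lost the call without the outlying array (adjusted p = 0.0723). In controls these genes gave +0.37 (adjusted p = 0.147) and +0.16 (adjusted p = 0.51). Over the class, 10 of 11 genes were positive in Fk cultures, with a median of +0.52, and 8 of 11, with a median of +0.34, without that array; in controls it was 6 of 11.

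Of the other collagens COL16A1 (+0.77 ± 0.18, adjusted p = 0.0127) and COL7A1 (+0.56 ± 0.13, adjusted p = 0.0118) rose in Fk cultures, and COL1A1 (-0.87 ± 0.19, adjusted p = 0.0104) and COL6A1 (-0.54 ± 0.13, adjusted p = 0.0151) fell. COL6A1 also fell in controls, to 10.29, 10.29 and 10.57 at 48 h, against 11.01, 11.05 and 11.02 at 12 h (-0.64 ± 0.13, adjusted p = 0.00743). Its 4 bright probe sets all had that sign in both cultures. The other bright probe sets of COL1A1 gave -0.10 and -0.68 in Fk cultures, and +0.21 and -0.26 in controls. The size of the fall of COL1A1 thus depended on the probe set. Further COL1A1 probe sets, with means of 2.73 and 2.64 over the 12 arrays, were not bright. In controls COL16A1 gave +0.37 (adjusted p = 0.15), COL7A1 -0.09 (adjusted p = 0.645) and COL1A1 -0.23 (adjusted p = 0.411), and the test of the difference between the cultures is the one given above, with an adjusted p of 0.996 for COL7A1 and COL1A1.

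**Figure D3:**
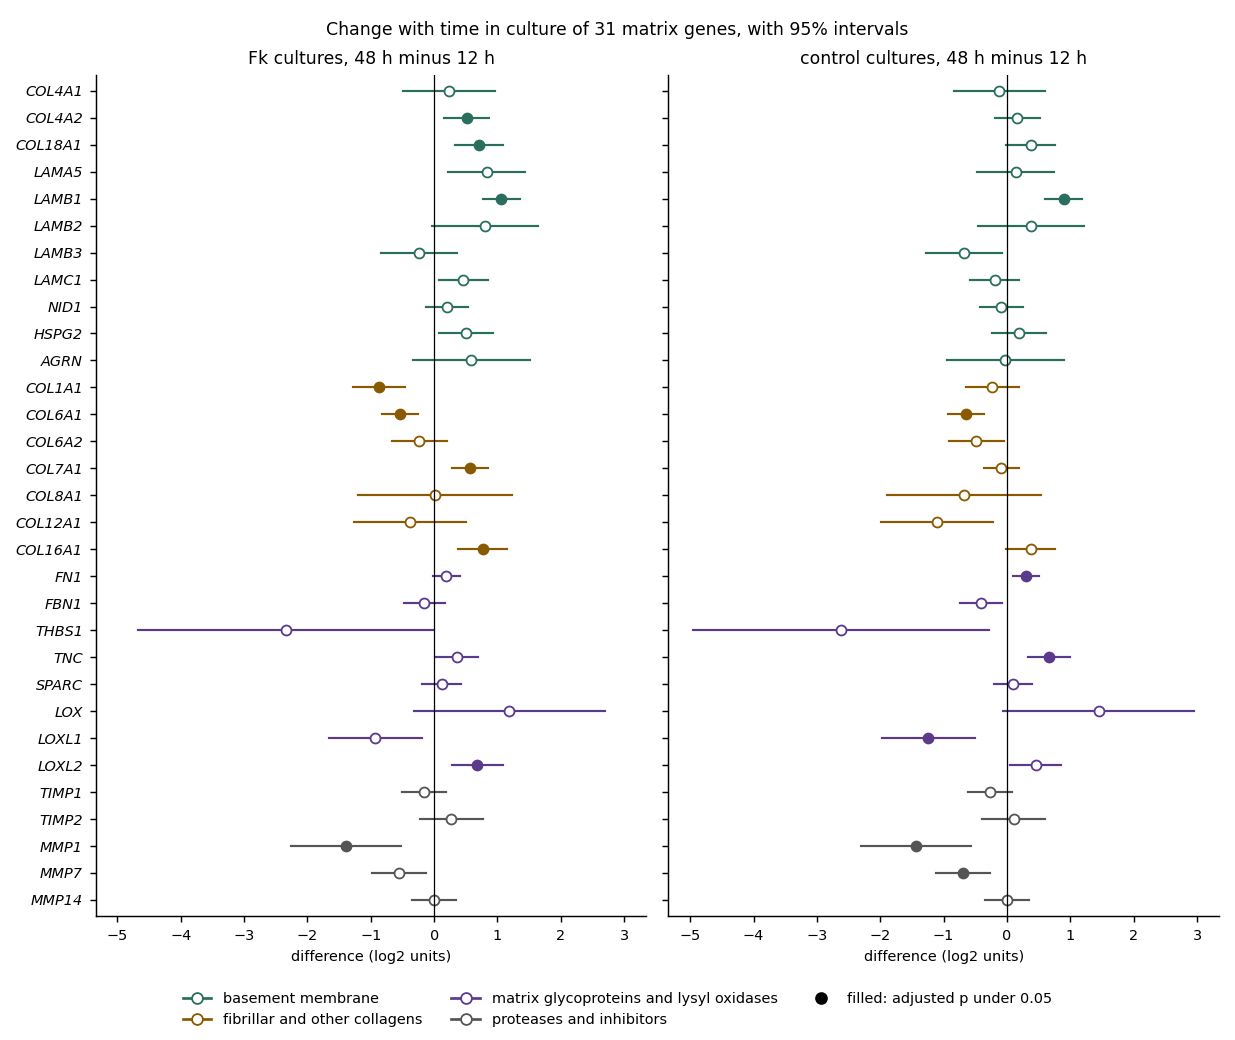
Log2 difference, 48 h minus 12 h, of the 31 tested matrix genes in Fk cultures (left) and in control cultures (right), with 95% intervals of limma on the horizontal axis and genes down the vertical axis, coloured by class. Filled markers passed the adjusted test: 9 genes in Fk cultures and 7 in controls, with LAMB1 to the right of 0 and COL6A1 and MMP1 to the left of 0 in both.

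The matrix glycoproteins and lysyl oxidases moved both ways with time. In Fk cultures LOXL2 rose (+0.68 ± 0.18, adjusted p = 0.0234), while in controls it gave +0.45 (adjusted p = 0.098). TNC gave +0.36 in Fk cultures (adjusted p = 0.104) and rose in controls (+0.66 ± 0.15, adjusted p = 0.0136), and FN1 gave +0.19 in Fk cultures (adjusted p = 0.162) and rose in controls (+0.30 ± 0.09, adjusted p = 0.048). LOXL1 gave -0.93 in Fk cultures (adjusted p = 0.0659) and fell in controls (-1.25 ± 0.33, 2.37-fold lower, adjusted p = 0.025), where it read 5.93, 5.94 and 6.77 at 48 h, against 7.37, 7.24 and 7.78 at 12 h. None of these 4 genes passed the test of the difference between the cultures.

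THBS1 had the greatest mean difference with time and the greatest spread of the members, and was named after its values were seen. It read 3.98, 7.52 and 8.96 in Fk cultures of 48 h, against 9.16, 9.53 and 8.79 at 12 h, and 5.67, 7.55 and 8.27 in controls of 48 h, against 9.47, 9.89 and 9.99 at 12 h. All control arrays of 48 h lay below those of 12 h, yet the difference of -2.62 ± 1.05 did not pass (adjusted p = 0.0998), and in Fk cultures the highest array of 48 h overlapped with 12 h at -2.34 (adjusted p = 0.131). LOX lay the other way, at +1.19 in Fk cultures (adjusted p = 0.23) and +1.45 in controls (adjusted p = 0.152).

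Both tested genes of secreted proteases had lower means at 48 h. MMP1 read 7.43, 8.29 and 7.65 in Fk cultures of 48 h, against 8.95, 8.81 and 9.79 at 12 h, a difference of -1.39 ± 0.39 (2.62-fold lower, adjusted p = 0.0291) that became -1.09 and lost the call without the outlying array (adjusted p = 0.0724). In controls it read 7.23, 7.20 and 8.22 at 48 h, against 9.58, 8.43 and 8.96 at 12 h (-1.44 ± 0.39, 2.71-fold lower, adjusted p = 0.0274). MMP7 gave -0.55 in Fk cultures (adjusted p = 0.0616) and fell in controls to 7.85, 8.27 and 8.31 at 48 h, against 9.19, 8.54 and 8.79 at 12 h (-0.70 ± 0.19, 1.62-fold lower, adjusted p = 0.0285). TIMP1, TIMP2 and MMP14 passed in neither culture, with differences between -0.27 and +0.27.

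The promoter window of MMP7 (chr11:102530698-102530997, minus strand) is shown because this gene was lower at 48 h. Capitals mark the letters TGANTCA, the AP-1 element, which reads the same on both strands and starts 67 bases before the annotated start.
MMP7: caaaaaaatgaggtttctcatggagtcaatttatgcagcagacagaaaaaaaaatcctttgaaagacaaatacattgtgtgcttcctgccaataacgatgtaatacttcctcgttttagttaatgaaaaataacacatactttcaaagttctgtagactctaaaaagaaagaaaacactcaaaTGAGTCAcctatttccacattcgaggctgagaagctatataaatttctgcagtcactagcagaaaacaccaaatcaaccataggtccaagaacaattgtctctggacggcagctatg
This motif stands in 7.71% of all windows and in 3 of the 36 windows of the matrix genes, those of LAMA3, LAMB3 and MMP7. A match describes the letters of the window only.

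**Figure D4:**
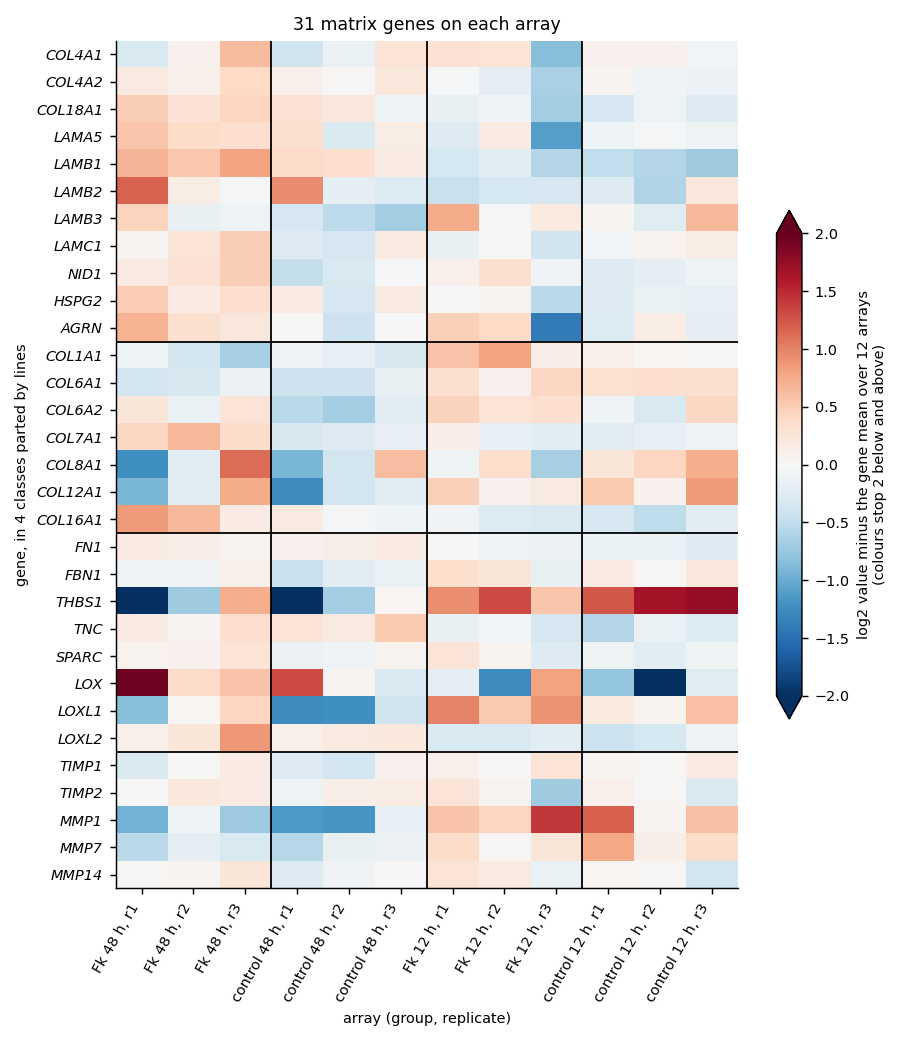
Log2 value of each tested matrix gene minus its mean over 12 arrays (colour, ending at 2 above and 2 below), with genes down the vertical axis in 4 classes parted by lines and arrays along the horizontal axis, Fk and control at 48 h, then Fk and control at 12 h. LAMB1 is above its mean on every array of 48 h, MMP1 below its mean there, and replicate 3 of Fk at 12 h is low for AGRN, LAMA5 and COL4A1.

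Other genes of the matrix were read beside the members. Of 141 further names of collagens, basement membrane genes, glycoproteins, proteoglycans, collagen processing enzymes and proteases, 68 were tested. By limma, Fk minus control passed for 0 of 68 at 48 h and for 0 of 68 at 12 h, with 9 and 2 at an unadjusted p under 0.05 (7 at 12 h without the outlying array), against 5.18% and 6.71% of all genes. It was positive for 39 and 44 of them, against 53.8% and 53.2% of all genes, with medians of +0.05 and +0.06. The smallest p at 48 h belonged to ECM1, a glycoprotein gene (7.78 ± 0.18 with Fk, against 7.03 ± 0.33 in controls, SD, n = 3 each), at +0.75 ± 0.21 (adjusted p = 0.638), and at 12 h to CTSB, which encodes the lysosomal protease cathepsin B (11.04 ± 0.29 with Fk, against 10.45 ± 0.24 in controls), at +0.59 ± 0.17 (adjusted p = 0.654). No test set these genes against the 31 members.

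Between the times some of these other genes passed the test. In Fk cultures 14 of 68 rose and 2 fell between 48 h and 12 h, against 11.5% and 11.7% of all genes (10 and 4 without the outlying array, against 12.5% and 13.4%). In controls 12 rose and 3 fell, against 10.6% and 10.9%. LAMA1, a laminin alpha chain gene, rose by 1.88 ± 0.30 in Fk cultures (adjusted p = 0.00286) and by 1.66 ± 0.30 in controls (adjusted p = 0.00515). COL22A1 rose by 1.50 ± 0.22 and 1.17 ± 0.22 in these cultures (adjusted p = 0.0017 and 0.0056), and GPC6, a cell-surface proteoglycan gene, by 1.90 ± 0.36 and 1.74 ± 0.36 (adjusted p = 0.00573 and 0.00892). FRAS1 and FREM2, whose proteins lie at epithelial basement membranes, also rose in both, though FREM2 lost the call in Fk cultures without the outlying array (adjusted p = 0.0769), while SDC3, a syndecan gene, fell in both, at -1.12 and -1.09.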

How the data were processed

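Log2 values per probe set were deposited by the authors in 1 table of 12 arrays. They are GCRMA values, per the submitters' processing notes, in which background, quantile normalization and summary are built in. The version of GCRMA, and whether other arrays were normalized with these, are not given in the sources used here. Array medians ran from 2.85 to 2.94.

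Probe sets were named from GEO's platform annotation: 41097 of 54675 carry 1 gene symbol, 1801 several and 11777 none. The brightest probe set per gene was kept. Tests used limma 3.58.1 in R 4.3.3, group means over all 12 arrays, eBayes (8 residual and 2.44 prior degrees of freedom) and Benjamini-Hochberg adjustment over 10784 genes, two-sided, at 0.05. The median half-width of a 95% interval was 0.447. On simulated data for 48 h (10784 genes, 5 sets), 56.6% of changes of 1 log2 unit and 86.4% of changes of 2 were recovered, with 6.8 false calls per set. The simulated noise was independent between arrays, unlike that of some arrays of 48 h. Changes under 1 log2 unit were not simulated, and the highest member difference at 48 h was +0.83. The recovery therefore does not cover differences of the size printed for the members.

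The members, lists and tests were chosen with earlier results of these data known. Full statistics went to the 3 members per class and contrast with the smallest p at each time, 2 for the difference and the mean of both times, and called members between times. In all, 25 other settings were tried. Figures used Python 3.11.15 with matplotlib 3.10.9; tables used pandas 2.3.3.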

Additional observations from a re-analysis of the deposited data

Results flagged for a closer look

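LAMC1, the gene of the shared laminin gamma chain, stood out because every Fk array lay below the control mean at 12 h and every Fk array lay above the control mean at 48 h. Its Fk effect at 48 h minus that at 12 h was +0.66 ± 0.24 (unadjusted p = 0.0213, adjusted p = 0.996 by limma), so the test of the difference did not pass. Such opposite placing was found for 1 of 31 members and for 4.41% of all genes (476 of 10784). The other probe set of LAMC1 gave +0.05 at 12 h, so the opposite placing holds for the brighter probe set alone, and +0.42 at 48 h.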

How the results depend on the processing

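Across 25 other settings, 12 of which left out 1 array and 1 of which was chosen after seeing the data, the counts for Fk minus control stayed at 0 members with the exception of array quality weights. Over 1319 values of the named members, 1222 kept their direction and their side of the threshold, 66 lost the call, 19 gained it and 12 changed sign. For many of these values the direction was fixed in advance. It cannot change where the array left out lies outside the groups compared, nor with another threshold, another filter or a balanced replicate block. The count of 1222 is thus no measure of how firm the directions are. With array quality weights, which ran from 0.0947 (replicate 3 of Fk at 12 h) to 21.6 (replicate 2 of Fk at 48 h) and whose estimate had not converged, 1 member passed at 12 h, 11 at 48 h, 3 for the difference of the effects, 11 for their mean, 20 for Fk cultures between times and 16 for controls between times, and 7 basement membrane genes were positive at 12 h; the cause was not tested. With no filter on low values 4 members passed in controls between times, with more genes adjusted for. At an adjusted p of 0.1 it was 14 in Fk cultures and 12 in controls. Without probe sets of the kinds _x_at and _s_at 21 members were tested: 5 passed in Fk cultures between times, and at 48 h 17 of 21 members and 6 of 6 basement membrane genes were positive. Fits of only the groups compared called 1 member in Fk cultures and 10 in controls between times. The shares of all genes called in these settings are not given here. These counts therefore cannot be set against all genes, and they show nothing particular to the matrix genes.

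Leaving out 1 array gave 0 to 0 members called for Fk minus control at either time, their difference and their mean, 5 to 11 in Fk cultures and 2 to 9 in controls between times, and 2 to 8 basement membrane genes (14 to 20 members) positive at 12 h and 10 to 11 (24 to 29 members) at 48 h. Same-numbered arrays deviated together with r = 0.04, 0.27 and 0.16 at 12 h and 0.80, -0.03 and 0.61 at 48 h. The labels do not call the numbers pairs, and the main fit did not pair them. At 48 h the arrays numbered 1 and 3 did deviate together. Groups that overlap at 48 h may therefore still differ between arrays of the same number. With the replicate block, 0 members passed for Fk minus control at either time, 9 in Fk cultures and 7 in controls between times. The shares of all genes called with the block are not given here. The 4 and 11 basement membrane genes positive at 12 h and 48 h could not change with the block, since each number stands once in each group. With the block within time and without replicate 3 of Fk at 12 h, 9 basement membrane genes were positive at 12 h.

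The changes of sign were these, cause not tested. MMP1 at 12 h gave -0.18 with weights, -0.13 with block and without that array, and -0.11 to 0.49 over single arrays left out. MMP1 at 48 h gave -0.010 to 0.58 over these. COL6A2 gave -0.13 at 48 h and -0.045 in the mean without _x_at and _s_at probe sets, which leaves its other probe set. For the difference of the effects, MMP7 gave -0.028 to 0.30 over single arrays left out, and TIMP2 gave -0.080 with weights, -0.014 with block and without that array, and -0.13 to 0.36 over single arrays.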

Other observations

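Replicates at 48 h differed more than the groups for several members. The array numbered 1 was the lowest of its group, with Fk and in controls alike, for 12 of 31 members, against 22.2% of all genes, and the highest in both for 8, against 27.6%. THBS1, the thrombospondin gene, and the collagen genes COL8A1 and COL12A1 were among those lowest on it, and LOX, LAMB2 and COL16A1 among those highest. COL8A1 read 9.38, 10.39 and 11.73 with Fk at 48 h and 9.71, 10.25 and 11.24 in controls of 48 h, and LAMB2 read 7.86, 6.83 and 6.65 with Fk and 7.63, 6.50 and 6.41 in controls. The genes given here were picked with their values in view. The same arrays ran in the same order along the first principal component, with scores of 56.1, 34.3 and 13.3 with Fk and 51.2, 36.4 and 10.2 in controls.

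Of 20 members with several bright probe sets, these shared 1 sign in 14 cases for Fk minus control at 12 h, in 15 at 48 h, in 15 for Fk cultures between times and in 17 for controls between times. All 7 probe sets of FN1 were positive at both times, from 0.06 to 0.54 at 12 h and from 0.00 to 0.74 at 48 h. Those of COL6A1 were mixed at 48 h, from -0.20 to 0.23.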
